A study of Mus musculus with 12 samples.

Results

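Genes of ribosome production and translation elongation were followed through the USF2 binding data of mouse embryonic fibroblasts (MEFs): Eef2, Eef1a1, Rrn3, Polr1b, Ubtf, Fbl, Nop56, Nop58, Ncl and Npm1. They are 10 of the 21887 protein-coding genes on the assembled chromosomes of GRCm38, and they were chosen by name with earlier results of these data known. A gene counted as called in a library when the summit of a deposited USF2 peak, its highest point, lay within 1000 bp of either end of the annotated gene or inside the gene. The data are chromatin immunoprecipitation followed by sequencing (ChIP-seq) with an antibody to USF2 in wild-type MEFs, 2 libraries from normal culture (normal 1 and 2) and 2 from glucose starvation (starved 1 and 2). Values for the 4 lists are always given with normal 1 first, then normal 2, starved 1 and starved 2. Neither the length of the starvation nor the origin of the 2 libraries of a condition (1 culture or several) is given in the sources used here, and differences between such libraries may be technical. The other 8 of the 12 samples, input DNA and acetylated histone libraries, were not analysed here.

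USF2 is a basic helix-loop-helix leucine zipper transcription factor that binds the E-box, the palindrome CACGTG, usually as a dimer with USF1. MYC binds the same letters, and genes of ribosome production are among the well-known MYC targets. Ribosome production starts in the nucleolus, where RNA polymerase I transcribes the ribosomal RNA genes with the help of UBTF, which coats these genes, and RRN3, which recruits the polymerase in response to growth signals. Box C/D ribonucleoproteins, built from fibrillarin (Fbl), NOP56 and NOP58 around a small nucleolar RNA, then methylate the ribosomal RNA, and nucleolin (Ncl) and nucleophosmin (Npm1) assist its folding and assembly. On the finished ribosome, eEF1A1 brings in charged tRNAs and eEF2 moves the ribosome along the mRNA. Translation elongation is known to slow when energy is short, through phosphorylation of eEF2 by its kinase.

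The sequences just upstream of Eef2 and Rrn3 are shown because the strongest peaks of the group lie there and both hold an E-box, and that of Eef1a1 because this partner of Eef2 had neither a peak nor an E-box. Each is the RefSeq sequence of GRCm38.p6 from 250 bases before the transcription start up to the start, written 5′ to 3′ on the strand of the gene, with CACGTG in capitals. They lie at chr10:81176381-81176630 (Eef2, plus strand), chr16:13780449-13780698 (Rrn3, plus strand) and chr9:78481725-78481974 (Eef1a1, minus strand).
Eef2: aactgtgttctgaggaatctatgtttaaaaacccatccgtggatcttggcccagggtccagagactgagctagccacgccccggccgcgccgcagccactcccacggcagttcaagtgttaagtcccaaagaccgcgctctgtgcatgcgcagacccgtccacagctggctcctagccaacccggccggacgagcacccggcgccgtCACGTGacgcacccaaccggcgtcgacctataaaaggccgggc
Rrn3: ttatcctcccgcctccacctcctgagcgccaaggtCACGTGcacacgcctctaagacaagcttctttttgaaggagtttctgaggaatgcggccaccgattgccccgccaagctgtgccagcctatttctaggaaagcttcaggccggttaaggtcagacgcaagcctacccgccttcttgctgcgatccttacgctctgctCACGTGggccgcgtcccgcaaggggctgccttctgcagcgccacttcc
Eef1a1: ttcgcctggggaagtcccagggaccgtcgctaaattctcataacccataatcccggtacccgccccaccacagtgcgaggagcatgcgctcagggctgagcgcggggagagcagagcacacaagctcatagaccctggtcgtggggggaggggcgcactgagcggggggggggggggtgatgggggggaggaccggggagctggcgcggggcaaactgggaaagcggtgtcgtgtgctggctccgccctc

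Of the 10 genes, 3 were called in both normal lists (Eef2, Rrn3 and Fbl), against 4.08% of all protein-coding genes. In both starved lists 1 gene was called, Eef2, against 2.48% of all genes, and this was also the only one called in all 4 lists (1.35% of all genes). Npm1 was called in normal 1 alone, which made 4 genes called in any list, against 10.5% of all genes. By library, 4 of the 10 genes were called in normal 1 (5.46% of all genes), 3 in normal 2 (6.5%), 1 in starved 1 (3.23%) and 1 in starved 2 (4.1%). The genes were picked with these calls in view, so nothing is read from their share beside that of all genes. The other 6 genes, Eef1a1, Polr1b, Ubtf, Nop56, Nop58 and Ncl, had no call in any list.

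**Figure D1:**
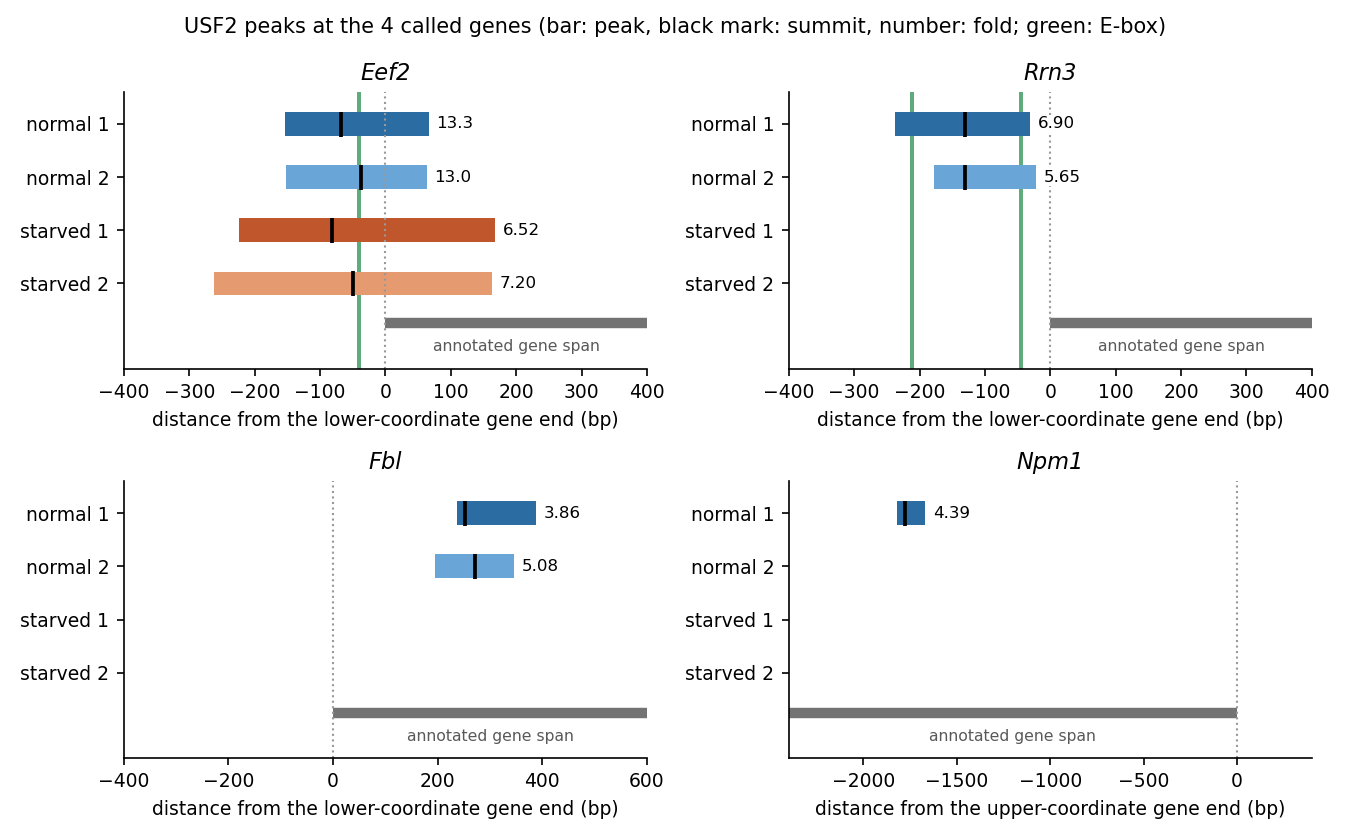
Peaks at the 4 called genes, by list (rows), against the distance in bp from 1 end of the annotated gene; the second Fbl peak of normal 2, at the other gene end, lies outside its panel. Bars are peaks, black marks summits, numbers fold enrichments and green lines E-boxes in the promoter windows of Eef2 and Rrn3 (Fbl and Npm1 have none drawn because no window was used for them); the Eef2 peaks span the E-box in all 4 lists, and the Rrn3 summit lies between 2 E-boxes.

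Eef2 (chromosome 10, 81176631 to 81182509) had by far the strongest peak of the group, just before its transcription start. The fold enrichment, the authors' ratio of the reads at the summit to those of the local background with 1 read added to each, was 13.3 in normal 1, 13.0 in normal 2, 6.52 in starved 1 and 7.20 in starved 2. These values stood on 34, 32, 20 and 19 reads at the summit, over a local background of 1.62, 1.53, 2.22 and 1.78 reads. The read numbers were recovered from the fold and p-value of each peak. Calling width differs between the conditions and depth may differ too. Both enter every fold enrichment, so the lower values after starvation are not a measured loss of binding. The −log10 q was 27.3, 25.5, 8.52 and 9.29, all far beyond the loosest value accepted in any list (q of 0.0499).

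The Eef2 peaks of the 4 lists fell at the same place. Their summits lay 68, 37, 81 and 49 bp from the start of the gene, all upstream of it and within 44 bp of each other. The E-box occupies chromosome 10, 81176588 to 81176593, which is 43 bases before the transcription start at its first base, and is flanked to the 8-letter palindrome TCACGTGA. The summits were 27.5, 3.5, 40.5 and 8.5 bp from its centre. For all peaks of each list with summit and E-box in 1 promoter window, the median distance was between 12.5 bp in both normal lists and 22.5 bp in starved 2. The Eef2 summits lay on either side of these medians. No other gene had an end within 1000 bp of them. The 2 normal peaks overlapped over 216 bp and the 2 starved peaks over 388 bp, with no identical edge in either pair.

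By fold enrichment the Eef2 peak ranked 66 of 1645 in normal 1 and 77 of 2124 in normal 2, within the first 4.01% and 3.63% of these lists. In the starved lists it ranked 285 of 825 and 237 of 1178, or within the first 34.5% and 20.1%. Lists of different length and calling width rank different peaks, so the ranks were also taken over the same 247 regions that all 4 lists call. There Eef2 ranked 57 and 60 under normal culture and 184 and 152 after starvation. Both starved ranks were thus behind both normal ranks, which was also so for 35.2% of the 247 regions, while for 36.4% both were ahead. An order of this kind was thus common and is no result about Eef2. The mean rank was 58.5 under normal culture and 168 after starvation, a gap of 109.5. A gap at least this large in that direction was found for 21 of the 247 regions (8.5%), Eef2 included. Eef2 was picked with earlier results known, and no test was made on this gap. Calling width differs between the conditions and depth may differ too, and their part in these ranks was not tested.

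**Figure D2:**
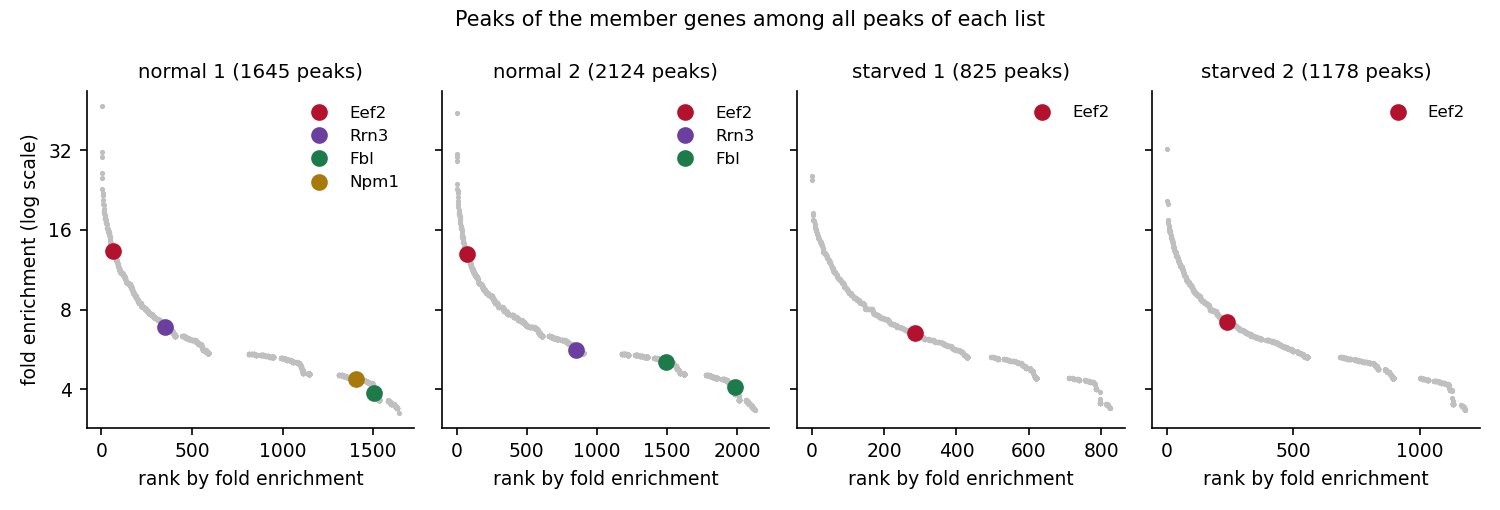
Fold enrichment (log scale) against rank by fold enrichment for all peaks of each list (grey; tied peaks share the best rank), with the peaks of the called genes in colour. Eef2 sits near the top of both normal lists at 13.3 and 13.0. In starved 1 and starved 2 it sits within the first 34.5% and 20.1% of the peaks, at 6.52 and 7.20. Fbl and Npm1 sit low in normal 1 at 3.86 and 4.39.

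Eef1a1 (chromosome 9, 78478453 to 78481724), the other elongation factor, had no peak near it. The nearest summit to an end of the gene was between 418 and 728 kb away over the 4 lists. Its promoter window held no CACGTG, as the printed upstream stretch shows for most of it. A second group of peaks near Eef2, called in all 4 lists between 8802 and 8879 bp from the gene, lay within 1000 bp of an end of Pias4, a SUMO ligase gene, and was not counted for Eef2. Its fold enrichment was 5.92, 5.50, 5.65 and 5.11, on 33, 29, 20 and 21 reads over a background of 4.75, 4.45, 2.72 and 3.30.

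Among the RNA polymerase I genes, Rrn3 was called and Polr1b and Ubtf were not. Rrn3 (chromosome 16, 13780699 to 13814841) had a fold enrichment of 6.90 in normal 1 and 5.65 in normal 2, on 10 and 8 reads over a background of 0.593 and 0.594 reads. The −log10 q was 5.58 and 3.58. By fold enrichment the ranks were 351 of 1645 and 848 of 2124, or 21.3% and 39.9% down these lists, tied peaks sharing the best rank. By −log10 q the ranks were 441 and 1362, so the peak stood lower in normal 2 by either measure. In the starved lists the nearest summit was 325 and 154 kb away, and Rrn3 had no call. A missing call means that the caller's threshold was not passed there, not that no USF2 was bound, and whether these 2 conditions differ at Rrn3 was not tested.

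The summit at Rrn3 was at the same base in both normal lists, 130 bp before the transcription start. This base lies between 2 E-boxes. The upstream one (chromosome 16, 13780484 to 13780489) starts 215 bases before the transcription start and the downstream one (13780651 to 13780656) starts 48 bases before it. The summit was 82.5 bp from the centre of the upstream E-box and 84.5 bp from that of the downstream one. Of all peaks with summit and E-box in 1 promoter window, 90% lay within 41.9 bp of an E-box in normal 1 and within 47.0 bp in normal 2, so the Rrn3 summit was farther from its E-boxes than these limits. The peak of normal 1 spanned both E-boxes and that of normal 2 the downstream one only. Neither E-box is the 8-letter form TCACGTGA. The pseudogene Gm6354 also has an end within 1000 bp of this summit.

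Polr1b, a core subunit of RNA polymerase I (chromosome 2, 129100970 to 129128060), had its nearest summit 59.1 to 70.7 kb away over the 4 lists. Ubtf (chromosome 11, 102304560 to 102323649) had it 23.4 kb away in normal 2 and 70.4 kb in normal 1, and 233 kb away in both starved lists. Neither gene had CACGTG in a promoter window. Ubtf has 6 such windows for different transcription starts, and 2 of them hold a related sequence, CACGCG, once in 1 window and 3 times in the other, counted on both strands.

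Of the box C/D proteins, Fbl was called in both normal lists. Fbl (chromosome 7, 28168893 to 28179269) had a peak inside the gene, with the summit 252 bp from an end in normal 1 and 271 bp in normal 2. The fold enrichment was 3.86 and 5.08, on 4 and 5 reads over a background of 0.297 and 0.180 reads. The −log10 q was 1.71 and 3.19 and the ranks were 1507 of 1645 and 1494 of 2124, so the peak of normal 1 was close to the caller's threshold and that of normal 2 lay below the median fold of its list (5.46). The 2 peaks overlapped over 110 bp with summits 19 bp apart. The noncoding gene Gm31024 has an end within 1000 bp of both summits. Normal 2 had 1 more peak at the other end of Fbl (28179414 to 28179565, with a fold enrichment of 4.08, 4 reads and a −log10 q of 1.79). Its summit was 196 bp beyond Fbl and also met the rule for the neighbouring gene Dyrk1b, so this peak cannot be assigned to 1 gene. In both starved lists the nearest summit to Fbl was 6020 kb away.

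Nop56 and Nop58, the scaffold proteins of the same particle, had no call. For Nop56 (chromosome 2, 130274367 to 130279313) the nearest summit lay 17.9 kb away in normal 1, the closest approach of any peak to an uncalled gene of the group, and 145 to 301 kb away in the other 3 lists. For Nop58 (chromosome 1, 59684961 to 59711510) it lay 110 kb away in both normal lists and 2280 and 2060 kb away in starved 1 and 2. Neither has CACGTG in its promoter window.

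Of the nucleolar proteins, Npm1 (chromosome 11, 33152498 to 33164142) was called in normal 1 through a peak inside the gene, 1780 bp from an end. It had a fold enrichment of 4.39 on 6 reads over a background of 0.593, a −log10 q of 1.76 and rank 1408 of 1645. In normal 2 the nearest summit was 370 kb away, so the call did not recur in the other library of the condition. Npm1 has processed pseudogene copies in the mouse genome, and how reads that map to several places were treated is not given in the sources used here, so this call is uncertain. Ncl (chromosome 1, 86344719 to 86359455) had its nearest summit 56.7 kb away in normal 2 and 190 to 228 kb away in the other lists, and no CACGTG in its window.

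**Figure D3:**
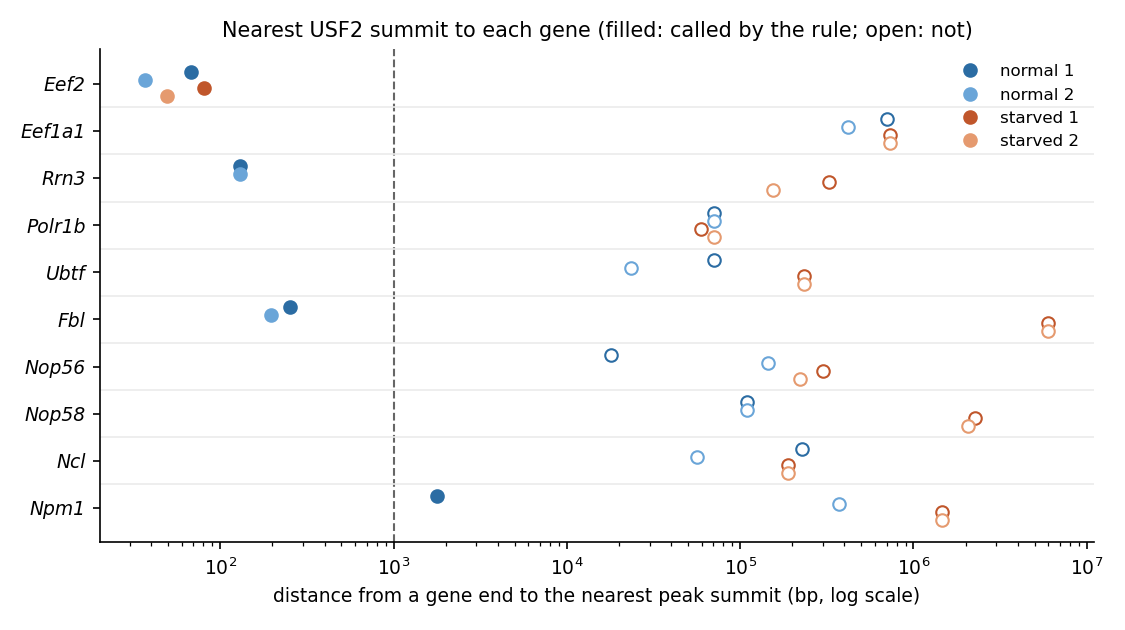
Distance from an end of each of the 10 genes to the nearest peak summit (log scale), 1 point per list, with the dashed line at 1000 bp. Filled points are calls; for the 6 uncalled genes every point lies at 17.9 kb or more, and the Npm1 point of normal 1 counts because its summit is inside the gene.

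The called genes differed widely in the reads behind their peaks. The smallest number of reads at a summit of any called peak was 3 in each of the 4 lists, and the median was 5, 6, 8 and 6. Fbl and Npm1 stood at 4 to 6 reads and Rrn3 at 8 to 10, which leaves little precision for any of them. With a −log10 q of at least 5, Eef2 was the only gene called in both normal lists, and Rrn3 stayed called in normal 1. With at least 10 reads at the summit the result was the same. Farther windows around the gene ends, up to 5000 bp, added no gene.

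**Figure D4:**
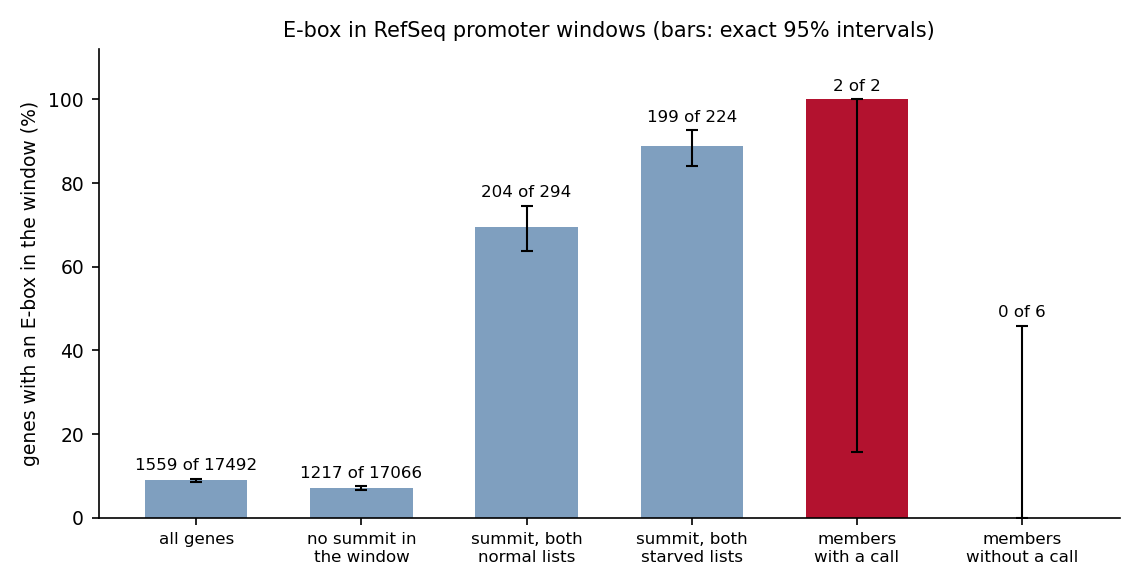
Share of genes with an E-box in the RefSeq promoter window, for all protein-coding genes and by USF2 summits in the window (blue), and for the 8 genes of the group with a window (red), with exact 95% binomial intervals. Both called genes with a window have an E-box and none of the 6 uncalled genes has one, with wide intervals at these numbers. The red bars are of genes picked with their calls in view, so nothing is read from their difference.

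Promoter sequences were searched for the E-box. A RefSeq window, 250 bases before to 50 after a transcription start, was matched for 8 of the 10 genes, all but Fbl and Npm1. CACGTG, which reads the same on both strands, was found at Eef2 and Rrn3, the 2 called genes with a window (2 of 2, exact 95% interval 15.8 to 100%), and at none of the 6 uncalled genes (0 of 6, exact 95% interval 0 to 45.9%). Of all 17492 protein-coding genes with a window, 8.91% had it. Of genes with a USF2 summit in the window in both normal lists, 69.4% had it (204 of 294), and of those with a summit in both starved lists 88.8% (199 of 224), against 7.13% of genes with a summit in no list. The 8-letter form TCACGTGA, which contains CACGTG, was found at Eef2 alone of the 8 genes and at 1.41% of all genes. When the related sequences CACGCG and CACATG were allowed on either strand, Ubtf joined Eef2 and Rrn3, and 31.8% of all genes matched. Neighbouring genes can share a window, and the intervals cover counting error only. The 8 genes were picked with their calls in view, so their intervals stand for no wider set of genes. Nothing is read from the split between called and uncalled genes. A match is a description of letters and does not show a binding site. The windows of Eef2 and Rrn3 were 64.7% and 61.7% G and C. Those of the uncalled genes were 69.3% (Ncl), 66.7% (Eef1a1), 66.0% (Nop56), 52.7% (Polr1b), 45.3% (Nop58) and 46.3% to 82.3% (the 6 of Ubtf), and the median over all windows was 56.3%.

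The wider machinery was sampled with 7 lists of 185 genes, the 10 genes included. Of these, 8 were called in both normal lists (4.32%, against the 4.08% of all genes) and 5 in both starved lists (2.70%, against 2.48%), so both shares were close to that of all genes. In any list 17 were called (9.19%, against the 10.5% of all genes). Of 28 genes of ribosomal RNA processing and ribosome assembly none was called in any list. Of 21 genes of RNA polymerase I and its factors, Rrn3 was the only one called (4.76%). The 8 core proteins of small nucleolar ribonucleoproteins had Fbl alone (12.5%). The 7 nucleolar chaperones and scaffolds had Npm1 and Nolc1 (28.6%), each in normal 1 alone. These shares are of calls in any list, where all genes had 10.5%. They rest on small counts and partly on genes picked with their calls in view, so nothing is read from them. Nolc1, a nucleolar scaffold, had a fold enrichment of 5.31 on 5 reads. Of 10 elongation factors, Eef2 and Eif5a2, a tissue-restricted form of eIF5A, were called in both normal lists, Eif5a2 with 7.71 and 7.62 on 9 and 8 reads. Eef1b2 was called in starved 2 alone (4.28 on 6 reads) in a region shared with Ndufs1.

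Of 33 initiation factors both normal lists called 2 (6.06%, against 4.08% of all genes) and both starved lists 3 (9.09%, against 2.48%). These are small counts, and 2 of the genes had peaks of a normal fold enrichment near that of Eef2. Eif4g1, the scaffold of the cap-binding complex, had fold enrichments of 13.7, 11.9, 13.1 and 13.7 on 33, 32, 33 and 30 reads. Eif4e, which binds the mRNA cap, had 11.9, 13.2, 8.04 and 7.0 on 18, 20, 13 and 14 reads. Among the 247 regions called in all 4 lists, Eif4g1 ranked 52, 74, 33 and 26, with both starved ranks ahead of both normal ranks. Eif4e ranked 71, 57, 127 and 163, with both starved ranks behind, as for Eef2. The peaks at Eef2, Eif4e and Eif4g1 thus had similar ranks under normal culture, while in the starved lists Eif4g1 stood ahead of the others. Either order was common among the 247 regions (35.2% behind and 36.4% ahead), so this is no result about these genes. The part of depth and calling width in it was not tested. Eif3f, a subunit of the eIF3 complex, was called in both starved lists (7.04 and 7.96) and in neither normal list, and Eif3a in starved 2 alone (6.45).

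**Figure D5:**
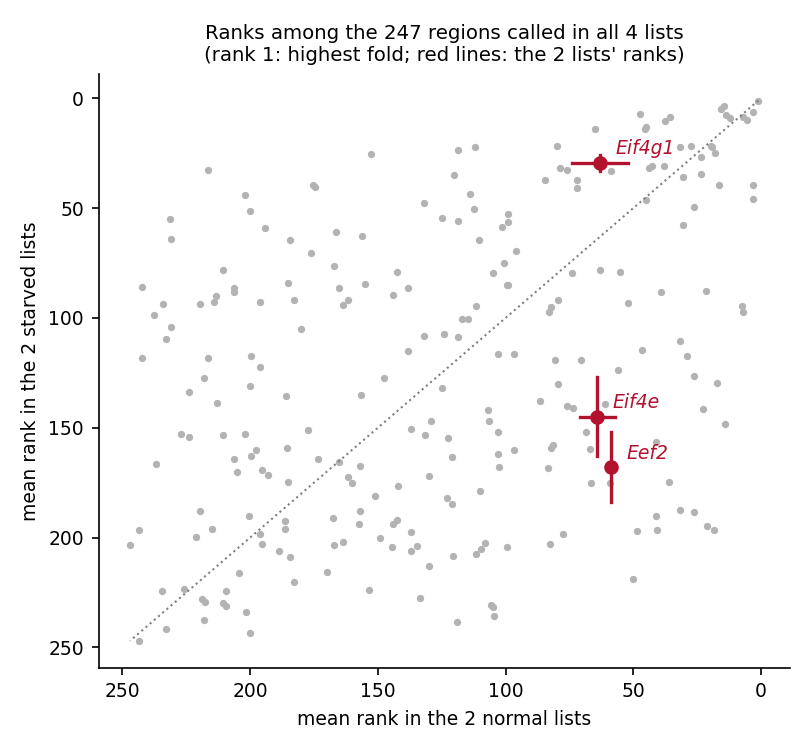
Mean rank by fold enrichment in the 2 normal lists (x) and the 2 starved lists (y) for the 247 regions called in all 4 lists, with rank 1, the highest fold, at the right and top; red lines join the ranks of the 2 lists. Eef2 and Eif4e lie below the diagonal at 58.5 and 168 and at 64 and 145, and Eif4g1 above it at 63 and 29.5.

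Of 78 cytosolic ribosomal protein genes, 2 were called in both normal lists, 1 in both starved lists and none in all 4. In that order the shares were 2.56%, 1.28% and 0%, where all protein-coding genes had 4.08%, 2.48% and 1.35%. The counts are small, so nothing is read from these shares. Rps28 had fold enrichments of 6.17 and 4.63 in the normal lists at an end shared with Ndufa7, and 4.93 in starved 2. Rpl19 had 8.0 and 7.15 in the normal lists on 26 and 21 reads, with the summits inside the annotated gene at 3806 and 3810 bp from an end. These summits were 6.5 to 10.5 bp from a CACGTG in a promoter window. That E-box starts 19 bases before 1 annotated transcription start of Rpl19 and 233 bases before another. Rpl23 had 6.69 and 5.73 in the starved lists. A further 3 of these genes were called in 1 or 2 lists without filling a condition, Rps18, Rps9 and Rpl36. Ribosomal protein genes have many processed copies, so a peak inside such a gene can carry the same uncertainty as that of Npm1. The Rpl23 summits lay outside the annotated gene, 40 and 27 bp from its end.

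E-boxes at 3 initiation factor genes are shown beside those of Eef2 and Rrn3, with 12 bases on either side and CACGTG in capitals, to compare the flanks. For Eif4e, which has 2 E-boxes before its start, the one nearer to the summits is shown. They are on the plus strand of GRCm38.p6, at chr10:81176576-81176605 (Eef2), chr16:13780472-13780501 and chr16:13780639-13780668 (Rrn3, upstream and downstream), chr16:20672661-20672690 (Eif4g1), chr3:138527192-138527221 (Eif4e) and chr7:108934335-108934364 (Eif3f).
Eef2: acccggcgccgtCACGTGacgcacccaacc
Rrn3 upstream: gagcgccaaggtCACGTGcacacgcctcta
Rrn3 downstream: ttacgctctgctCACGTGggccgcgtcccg
Eif4g1: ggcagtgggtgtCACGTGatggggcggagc
Eif4e: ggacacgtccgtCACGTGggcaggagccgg
Eif3f: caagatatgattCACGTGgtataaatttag
Eif4g1 has 1 more CACGTG after its start, which is not shown. Its distance from the summits is not given here, so a summit may lie nearer to it than to the E-box shown. The E-box of Eif4g1 shown was 4.5 to 81.5 bp from the summits of the 4 lists, the one of Eif4e shown 11.5 to 19.5 bp (the other 144.5 to 175.5 bp), and that of Eif3f 3.5 bp from both starved summits. Of the 7 genes of the wider lists called in both normal lists that have a window, 6 had CACGTG in it (85.7%). Of the 139 others with a window, 20 had it (14.4%), against 8.91% of all genes with a window. These others were not called in both normal lists and include Eif3f and Rpl23, which hold CACGTG and were called in both starved lists. The 7 include Eef2 and Rrn3, picked with their calls in view, so nothing is read from this split.

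By pattern over the 4 lists, the peaks most like that of Eef2 were sought among the 204 other gene-end regions called in all 4 lists, by the Euclidean distance between their ranks as percent of each list. The closest was a region shared by Glyr1 and Ubn1 (chromosome 16, 5049764 to 5050207), at a distance of 2.58 percentage points, with fold enrichments of 13.4, 12.8, 6.40 and 7.03. It was followed by Zfp207 (distance 7.51; 11.0, 9.66, 6.31 and 7.92) and Rabep1 (distance 7.94; 19.2, 18.4, 6.85 and 7.93). This likeness is over 4 lists and describes these libraries.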

How the data were processed

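Peaks were called per library. Tools named in the submitters' processing notes are MACS2 2.2.7.1, Bowtie2 2.5.1 and deepTools 3.5.1, and the build there is GRCm38; parameters, use of the inputs as control and the handling of multiply mapped reads are not given in the sources used here. Each deposited list gives a fold enrichment (a ratio), a −log10 p, a −log10 q, a summit offset in bp and a score, which in the deposited values is the whole part of 10 times −log10 q. Replicates were not pooled by the authors.

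Peaks on unplaced contigs were left out (kept were 1645 and 2124 normal, 825 and 1178 starved). The narrowest peak was 152 bp in the normal and 306 bp in the starved lists, and the lowest background was 0.644 reads per kb in both normal and 0.428 and 0.434 in the starved libraries. The pileup k was recovered as the whole number for which (k + 1)/(background + 1) equals the fold and the Poisson tail matches −log10 p, within 0.000265 for every peak; the recovery and the calling step were tested on simulated data. Genes were the protein-coding ones of the RefSeq table of GRCm38.p6, which gives no exons, so positions within genes are not split into exon, intron or UTR. Start sites and promoter windows came from the RefSeq promoter table. Regions were peaks merged over lists where they overlapped by at least 1 bp. No test between conditions was made: the genes and lists were chosen with earlier results of these data known, and fold enrichments are used within a list only.

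All 10 genes are named; of the wider lists, the rule names genes called in both lists of a condition (at most 15), genes with an end within 1000 bp of a summit at the 10 genes, and the 3 regions closest to Eef2 in rank. Eef1b2, Eif3a, Nolc1, Rps18, Rps9, Rpl36 and Pias4 were named after their values were seen, as were the neighbouring genes Ndufs1, Ndufa7, Vps52 and Lonp1. Python 3.11.15 with pandas 2.3.3, NumPy 2.4.6, SciPy 1.17.1 and matplotlib 3.10.9 were used.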

Additional observations from a re-analysis of the deposited data

How the results depend on the processing

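No paired analysis was possible because the results come from no test. The numbers of the 10 genes called in both normal, both starved, all 4 and any list were the same with windows of 500, 2000 and 5000 bp and with any base of a peak deciding. With gene ends only, Npm1 was no longer called, which left 3 genes called in any list. With −log10 q of at least 5, with every list cut to the length of the shortest, and with at least 10 reads at the summit, 1 gene was called in both normal lists (Eef2) and 2 in any list (Eef2 and Rrn3). Under the first 2 of these settings 5 genes of the wider lists were called in both normal lists, instead of 8. When 1 library was left out, its condition kept 1 list, so the count for that condition is of calls in that list alone. This gave 3 to 4 genes called in the remaining normal lists and 3 to 4 in any list. In the remaining starved lists, and in all remaining lists, 1 gene was called each time. For the wider lists, leaving out 1 library gave 8 to 10 genes in the remaining normal lists and 5 to 9 in the remaining starved lists. The 9 are the calls of starved 2 alone, beside 5 in both starved lists. Ranked by −log10 q in place of fold, Eef2 came 37, 45, 187 and 188 in normal 1, normal 2, starved 1 and starved 2, Rrn3 441 and 1362, Fbl 1594 and 1511, and Npm1 1496 in normal 1. Ranks among the 247 shared regions, chosen after seeing the data, were 57, 60, 184 and 152 for Eef2. Sharing of the Eef2, Rrn3 and Fbl peaks between normal lists, and of Eef2 over all 4, held with 50% reciprocal overlap and with summits at most 100 bp apart. TCACGTGA in place of CACGTG left 1 gene with a match. The cause of these changes was not tested. The peaks at Fbl, Npm1 and Rrn3 rest on 4 to 10 reads per summit, which limits their precision.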
